A study of Mus musculus with 10 samples.

Results

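Lymphocyte markers were followed in sorted microglia, the resident macrophages of brain tissue, to describe how much signal of T, B and natural killer (NK) cell genes those RNA samples carried. The members were 40 genes chosen by name: 23 genes of T cells, 7 of B cells and 10 of NK and cytotoxic cells. Of these, 38 were on the nCounter mouse immune panel, which held 545 endogenous genes, while Klrg1 and Ncr1 were not analysed here. All 38 transcript accessions matched a RefSeq gene with the same symbol.

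Microglia had been taken from the hippocampus of male Balb/c pups at postnatal day 14, on a Percoll gradient and by FACS. The 5 control pups were numbered 1, 18, 40, 52 and 69. The other 5, numbered 11, 17, 24, 38 and 59, underwent brief daily separation (BDS), being removed from the dam for 15 min a day on a schedule running from postnatal day 1 to 21, so that they were still within it at collection. Each pup came from a litter of its own, as the design text states, and was read in 1 lane; 2 ng of RNA was amplified as cDNA by 5 rounds of PCR before hybridization. Groups and numbers come from the sample titles, and which surface markers the sort used was not stated in the labels.

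Lanes differed in depth. Endogenous counts ran from 76237 in control 52 to 968930 in BDS 17. The geometric mean of the 6 housekeeping genes, used to scale the lanes, was 1.23 higher in BDS lanes on the log2 scale (8.55 ± 1.28 against 9.79 ± 0.549, SD, n = 5 each; exact two-sided permutation p = 0.0873). Without control 40 that difference was 1.61 (exact two-sided permutation p = 0.0238, n = 4 and 5). With any other single pup left out it ran from 0.80 to 1.46 (exact two-sided permutation p from 0.0714 to 0.175). The 8 negative probes, which have no target in mouse RNA, averaged 10 ± 2.80 raw counts in controls and 10.03 ± 1.24 in BDS lanes (SD, n = 5 each; exact two-sided permutation p = 1). All 13 microglia genes on the panel, among them Csf1r, Cx3cr1, Itgam and Trem2, were above the limit in 10 of 10 lanes. They took 35.6% to 42.3% of endogenous counts in controls and 36.4% to 40.9% in BDS lanes. Of 11 granulocyte and monocyte genes 3 were present, Csf3r, Ccr2 and Cd14, of which 2 were above the limit in 10 of 10 lanes. Camp and Ltf were in 0 lanes and S100a8 and S100a9 in 1 lane each. The whole list took 0.805% to 1.33% of counts in controls and 0.675% to 1.09% in BDS lanes. Of 7 vascular genes 5 were present, at 0.433% to 0.739% and 0.466% to 0.679%. In such bulk samples, fewer cells of a type and less RNA per cell cannot be told apart.

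T cells recognise antigen through a receptor whose signal passes through the CD3 chains and CD247 to the kinases Lck and Zap70. B cells use a receptor that signals through CD79A and CD79B, and NK cells use receptors such as NKG2D (Klrk1) and kill with perforin and granzymes. These cells are scarce in the healthy brain, and several genes on such lists are also used by other immune cells.

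A gene counted as detected in a lane when its raw count exceeded the mean plus 2 SD of that lane's negative probes, a limit between 13.9 and 26.3 raw counts. Of the 38 members, 7 were detected in at least 4 of 10 lanes and are called present, 11 in 1 to 3 lanes and 20 in no lane. Over all 545 genes 51.9% were present, 18.5% were detected in 1 to 3 lanes and 29.5% in none. Il7r and Cd79b were above the limit in 10 of 10 lanes, as were 36.1% of all genes. The 7 present members were Il7r, Cd79b, Icos, Klrk1, Prf1, Cd40lg and Klrc2. Just inside the rule, at 4 lanes, were Cd40lg and Klrc2, and just outside it, at 3 lanes, were Cd5 and Tigit. A limit of the mean plus 3 SD left 5 present members, Il7r, Cd79b, Icos, Klrk1 and Prf1, and the same 5 were left without control 40, without BDS 17 or without BDS 38. With 1 limit of 22.6 counts pooled from all lanes, Tigit took the place of Cd40lg among the 7.

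**Figure D1:**
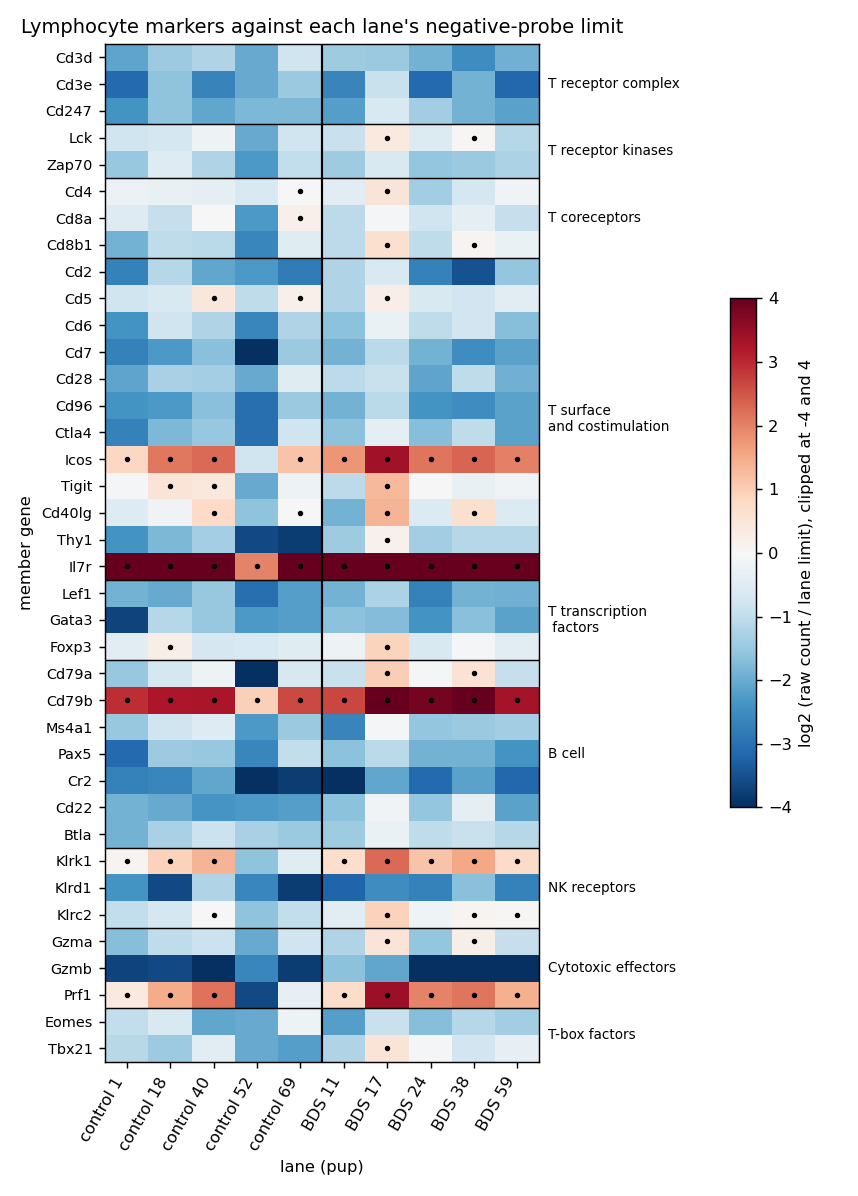
Raw count of each of the 38 members over the limit of its lane (log2 colour scale, clipped at both ends), for the 5 control and 5 BDS lanes, with members grouped by role. A black dot marks a count above the limit: Il7r and Cd79b have one in every lane, while the 3 genes of the T receptor complex have none.

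The start regions of Il7r, Prf1 and Cd3e are shown because they set markers seen in most lanes beside one seen in none. Windows of 250 bases before to 50 after the gene start come from RefSeq (GRCm38.p6), which held such a window for 26 of the 38 members. Capitals mark AGGAAGT on either strand (ACTTCCT when read on the other), letters that hold the GGAA core of ETS family factors. Il7r lies at chr15:9529827-9530126 (minus strand), Prf1 at chr10:61297586-61297885 (plus strand) and Cd3e at chr9:45009562-45009861 (minus strand).
Il7r: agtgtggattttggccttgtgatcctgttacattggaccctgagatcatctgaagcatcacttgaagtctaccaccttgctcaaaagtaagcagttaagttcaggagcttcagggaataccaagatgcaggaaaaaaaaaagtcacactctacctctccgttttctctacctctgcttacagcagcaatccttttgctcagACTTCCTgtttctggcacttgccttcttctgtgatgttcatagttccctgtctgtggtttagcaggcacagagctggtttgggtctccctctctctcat
Prf1: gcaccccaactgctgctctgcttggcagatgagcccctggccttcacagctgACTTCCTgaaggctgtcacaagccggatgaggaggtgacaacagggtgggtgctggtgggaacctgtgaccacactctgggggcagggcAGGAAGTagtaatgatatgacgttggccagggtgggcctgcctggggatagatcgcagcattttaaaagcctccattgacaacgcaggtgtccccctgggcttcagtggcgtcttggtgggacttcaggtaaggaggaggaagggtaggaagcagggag
Cd3e: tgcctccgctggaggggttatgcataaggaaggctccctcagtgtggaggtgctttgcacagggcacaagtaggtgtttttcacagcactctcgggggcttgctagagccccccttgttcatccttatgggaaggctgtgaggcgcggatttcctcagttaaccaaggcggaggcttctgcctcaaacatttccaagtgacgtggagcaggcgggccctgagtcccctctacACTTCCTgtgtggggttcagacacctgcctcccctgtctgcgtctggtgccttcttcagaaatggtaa
The letters start at base 202 of the Il7r window, at bases 53 and 142 of the Prf1 window and at base 233 of the Cd3e window. The window of Klrk1, also detected in most lanes, did not hold them and is not printed. The letters stand in 9.35% of the 32851 windows in the table, in those of 2 of the 4 present members with an entry and in those of 9 of the 22 other members with one. The 9.35% counts single windows, while a member counted when any of its windows held the letters. The member counts are therefore not like for like with that share. The letters therefore stand in the windows of detected and undetected members alike.

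Of the T cell genes, those of the antigen receptor itself were not detected. Cd3d, Cd3e and Cd247, the signalling chains, were above the limit in 0 of 10 lanes, with raw counts from 3 to 11. In control pups 1, 18, 40, 52 and 69, Cd3e counted 3, 8, 4, 6 and 5, and in BDS pups 11, 17, 24, 38 and 59 it counted 3, 9, 3, 6 and 3. These values lie under the negative-probe mean in every lane but 1, BDS 17, where the Cd3e count of 9 equalled it. Zap70, the kinase that binds the phosphorylated chains, was detected in 0 lanes (5 to 17 raw counts). Lck, which phosphorylates them, was above the limit in BDS 17 and BDS 38 alone, at 22 and 23 raw counts. Lck counted 22 in control 40 as well, where the limit was 25.5.

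The coreceptors lay mostly under the limit, which 2 of 15 control values and 3 of 15 BDS values exceeded. Cd4, which binds MHC class II, had 22, 20, 20, 16 and 14 raw counts in control pups 1, 18, 40, 52 and 69 and 14, 24, 10, 14 and 24 in BDS pups 11, 17, 24, 38 and 59. Only control 69 and BDS 17 exceeded their limits, and the groups overlapped throughout. Cd8a, a chain of the MHC class I coreceptor, passed in control 69 (16 raw counts), and its partner chain Cd8b1 passed in BDS 17 and BDS 38 (26 and 24). No lane had both chains above the limit.

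Among surface receptors of T cells, Il7r stood apart from the rest. It encodes the alpha chain of the receptor for IL-7, a survival factor of developing and resting lymphocytes. Il7r counted 799, 1424, 3944, 96 and 562 in control pups 1, 18, 40, 52 and 69 and 1226, 2005, 1572, 3384 and 1914 in BDS pups 11, 17, 24, 38 and 59. It was above the limit in 10 of 10 lanes, by 3.93 times in control 52 and by 155 times in control 40. Il2rg, the common gamma chain with which it forms the receptor, was detected in 3 lanes. On the normalized scale (each raw count over the housekeeping signal of its lane) Il7r stood at 1288 ± 615 in control lanes and 1285 ± 366 in BDS lanes (SD, n = 5 each). The log2 fold change, BDS over control, came to -0.01 ± 0.32 (SE; edgeR adjusted p = 0.989). Control 40 was the highest normalized value at 2144 and control 52 the lowest at 490, so that the control lanes enclosed all BDS lanes, which ran from 909 to 1753.

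Icos, a costimulatory receptor of activated T cells, counted 46, 106, 123, 14 and 31 in control pups 1, 18, 40, 52 and 69 and 63, 170, 116, 112 and 106 in BDS pups 11, 17, 24, 38 and 59. It was detected in 9 lanes, control 52 being the exception. Normalized counts averaged 75.1 ± 14.9 in control and 70.9 ± 8.36 in BDS lanes (SD, n = 5 each). The difference, BDS over control, was -0.08 ± 0.23 on the log2 scale (SE; edgeR adjusted p = 0.832). Cd28 and Ctla4, relatives of Icos that activate and restrain T cells, were detected in 0 lanes, with 6 to 11 and 3 to 13 raw counts. In the RefSeq gene order Cd28, Ctla4 and Icos follow each other with 0 protein-coding genes between them, so detection differed within a run of neighbours.

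Cd40lg, the ligand through which helper T cells activate CD40-bearing cells, counted 18, 22, 44, 8 and 14 in control pups 1, 18, 40, 52 and 69 and 5, 43, 18, 35 and 18 in BDS pups 11, 17, 24, 38 and 59. It exceeded the limit in control 40, control 69, BDS 17 and BDS 38, and the raw counts of the groups overlapped. Normalized counts were 22.5, 19.8, 23.9, 40.8 and 38.0 in control lanes and 6.05, 19.8, 10.4, 18.1 and 12.8 in BDS lanes, in the same order of pups. The control mean was 29.0 ± 9.66 and the BDS mean 13.4 ± 5.62 (SD, n = 5 each). On this scale the BDS lanes all lay under the control lanes. They did so for 1.06% of the 283 present genes and 4.58% of the 262 genes not present. The gap was narrow, since control 18 at 19.81 stood next to BDS 17 at 19.76. The highest control value, 40.8 in control 52, came from 8 raw counts, under that lane's negative-probe mean of 11.1. The log2 fold change was -0.96 ± 0.36 (SE; edgeR adjusted p = 0.126), larger than its standard error but not past the threshold of 0.05. At an unadjusted p under 0.05 Cd40lg was the 1 member of the 7 tested to pass, where 8.83% of present genes passed in that direction. With lane depth as a covariate the value was -0.80 (edgeR adjusted p = 0.369), and after subtracting the negative-probe mean it was -0.69 (edgeR adjusted p = 0.556). Scaled to positive controls alone, where the median of all 283 genes was 1.35, Cd40lg was at 0.51 (edgeR adjusted p = 0.364).

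Tigit, an inhibitory receptor of T and NK cells, counted 25, 35, 34, 6 and 12 in control pups 1, 18, 40, 52 and 69 and 9, 41, 26, 18 and 24 in BDS pups 11, 17, 24, 38 and 59. It passed the limit in control 18, control 40 and BDS 17, and the groups overlapped. Cd5, a receptor that dampens antigen signals, passed in control 40, control 69 and BDS 17 at 35, 16 and 20 raw counts. Thy1, a surface glycoprotein shared by T cells and neurons, passed in BDS 17 alone with 19 counts and lay between 1 and 12 elsewhere. Cd2, Cd6, Cd7 and Cd96 were detected in 0 lanes, with 1 to 14 raw counts between them. Of the T cell transcription factors, Foxp3, the factor of regulatory T cells, passed in control 18 (29 counts) and BDS 17 (31 counts). Gata3 and Lef1 were detected in 0 lanes, at 2 to 11 and 3 to 9 raw counts.

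The B cell genes were divided between Cd79b and the rest. Cd79b, a signalling chain of the B cell receptor, counted 203, 232, 246, 47 and 86 in control pups 1, 18, 40, 52 and 69 and 118, 500, 371, 359 and 263 in BDS pups 11, 17, 24, 38 and 59. It was above the limit in 10 of 10 lanes, from 1.93 times in control 52 to 29.9 times in BDS 17. Normalized counts averaged 214 ± 47.6 in control and 192 ± 33.3 in BDS lanes (SD, n = 5 each). The difference, BDS over control, was -0.14 ± 0.22 on the log2 scale (SE; edgeR adjusted p = 0.676). Cd79a, with which Cd79b pairs in the receptor, counted 9, 15, 22, 1 and 9 in the same control pups and 10, 33, 25, 33 and 14 in the BDS pups. It passed the limit in BDS 17 and BDS 38 alone. Ms4a1 (CD20), Pax5, the factor of B cell identity, Cr2, a complement receptor, Cd22, an inhibitory lectin, and Btla, an inhibitory receptor of B and T cells, were detected in 0 lanes, with 1 to 18 raw counts.

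Of the NK receptors Klrk1 was detected most often. Klrk1, which binds stress-induced ligands, counted 28, 46, 66, 8 and 10 in control pups 1, 18, 40, 52 and 69 and 30, 81, 58, 65 and 45 in BDS pups 11, 17, 24, 38 and 59. Control 52 and control 69, the shallowest lanes, were the ones under their limits. Its normalized counts had a narrow spread, 36.0 ± 5.74 in control and 34.5 ± 2.17 in BDS lanes (SD, n = 5 each), and the log2 fold change came to -0.06 ± 0.24 (SE; edgeR adjusted p = 0.884). Klrc2, an activating receptor that works with the CD94 chain Klrd1, counted 13, 15, 26, 8 and 7 in the control pups and 14, 32, 23, 24 and 27 in the BDS pups, in the same order. It passed the limit in control 40, BDS 17, BDS 38 and BDS 59. Normalized counts averaged 20.7 ± 11.4 in control and 15.3 ± 2.74 in BDS lanes (SD, n = 5 each). The difference, BDS over control, was -0.25 ± 0.34 on the log2 scale (SE; edgeR adjusted p = 0.624). Without control 52, which stood at 40.8, the value was -0.01. Klrd1 was detected in 0 lanes, at 1 to 11 raw counts. Klrd1 and Klrk1 are neighbours in the RefSeq gene order, with 1 further protein-coding gene between Klrk1 and Klrc2. Klrc2 has near-identical relatives, Klrc1 and Klrc3, which were detected in 1 lane and 0 lanes, and how far its probe tells them apart is uncertain here.

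Prf1, the pore-forming protein perforin, counted 34, 69, 115, 2 and 11 in control pups 1, 18, 40, 52 and 69 and 31, 179, 104, 98 and 70 in BDS pups 11, 17, 24, 38 and 59. Like Klrk1, it was above the limit in 8 lanes, all but control 52 and control 69. Normalized counts were 41.4 ± 22.3 in control lanes and 56.1 ± 16.7 in BDS lanes (SD, n = 5 each), with overlapping groups. The log2 fold change was 0.33 ± 0.35 (SE; edgeR adjusted p = 0.552), and it was -0.26 with lane depth as a covariate and 0.15 without control 52. The granzymes that perforin delivers into target cells lay near the limit or under it: Gzma passed in BDS 17 and BDS 38 (24 and 26 raw counts) and Gzmb in 0 lanes (1 to 6 raw counts). Of the T-box factors of cytotoxic lymphocytes, Tbx21 passed in BDS 17 alone (24 raw counts) and Eomes in 0 lanes (4 to 16 raw counts).

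**Figure D2:**
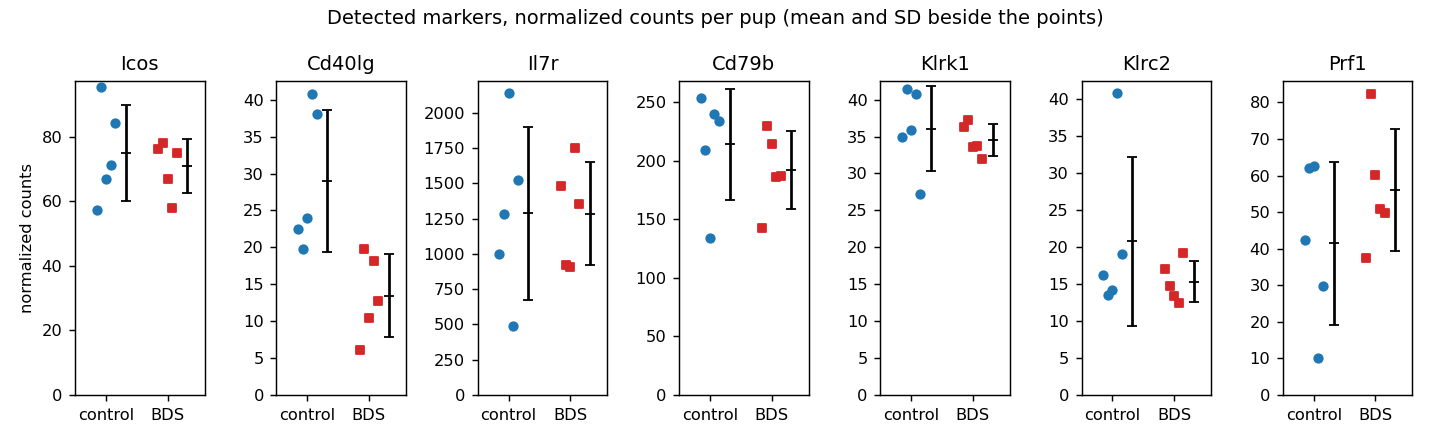
Normalized counts of the 7 present members in each of 5 control (circles) and 5 BDS (squares) pups, with the mean and SD beside the points and a linear axis from 0 in each panel. The groups overlap in all members but Cd40lg, where control 18 at 19.81 and BDS 17 at 19.76 nearly touch.

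None of the 7 tested members passed an adjusted p of 0.05, and 0% of the 283 genes did (edgeR). With no adjustment, 80 of the 283 genes (28.3%) were under 0.05 by edgeR, and 1 of the 7 members. DESeq2 with the same scaling called 25 genes and 0 members. On simulated counts made from these lanes, the edgeR step called 85.1% of genes changed 2-fold and 39.7% of those changed 1.5-fold. In each simulated run most of the 283 genes were changed, which makes the adjusted threshold easier to pass. These shares may therefore be higher than the power in the real comparison, where 0% were called. Differences of 2-fold or less in these members may not be detectable with 5 pups a group.

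Raw counts in the shallowest and the deepest lane are given as a description, since the limit that defines the present members is itself on raw counts and the 2 lanes belong to different groups. Between the shallowest lane, control 52, and the deepest, BDS 17, the housekeeping signal rose 11.1-fold and the median of the 283 present genes 12.9-fold. Over the same pair of lanes Icos rose 12.1-fold, Cd79b 10.6-fold, Klrk1 10.1-fold and Il7r 20.9-fold. Klrc2 rose 4.0-fold and Cd40lg 5.38-fold. Prf1 rose 89.5-fold, from a count of 2 in control 52. The mean raw count of the 31 members not present rose 2.69-fold, from 5.58 to 15, while the negative-probe mean was 0.809 times as high in BDS 17. Cd3d counted 6 in both lanes, and Cd4 1.5 times and Foxp3 1.94 times as much in BDS 17. For the 31 members the median of these ratios was 2.33, near the 2.65 of all 262 genes not present. The 31 were not uniform, since Cd79a rose from 1 to 33 counts and Thy1 from 2 to 19.

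**Figure D3:**
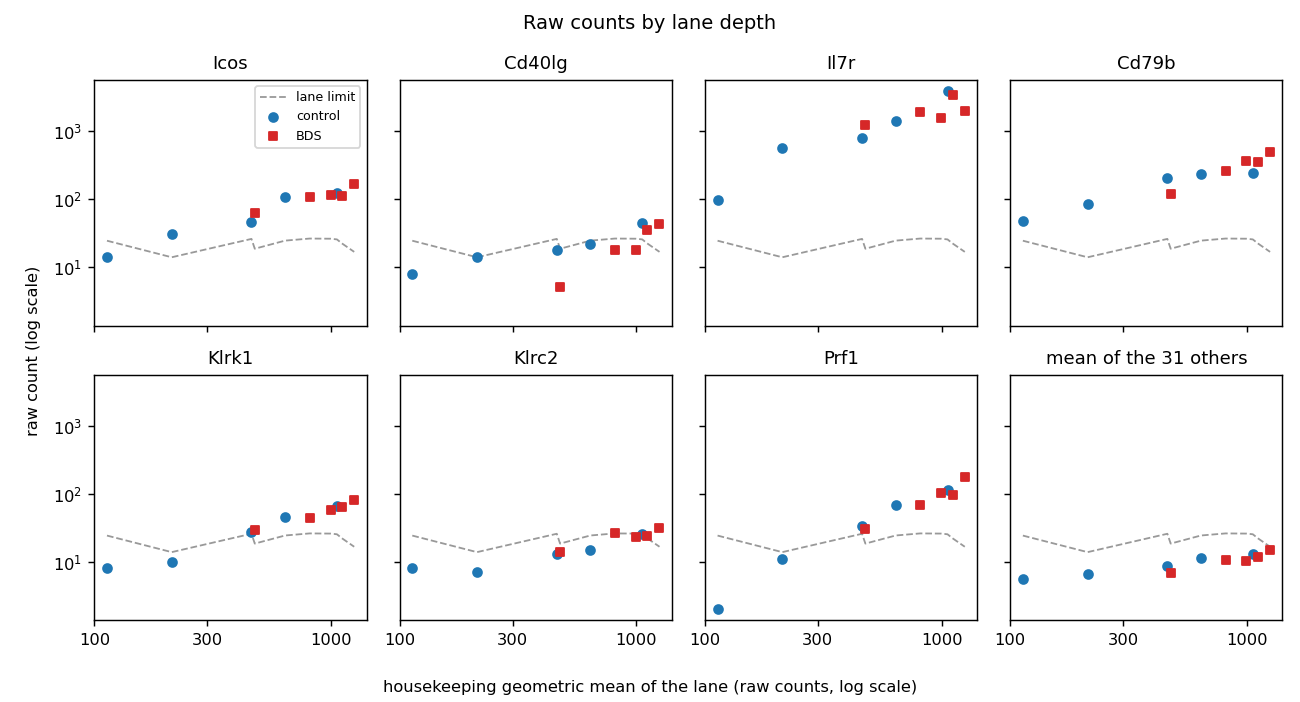
Raw counts of the 7 present members, and the mean of the 31 others, against the housekeeping signal of each lane, on log axes, with the lane limits as a dashed line. Il7r, Cd79b, Icos, Klrk1 and Prf1 climb with depth well past the limit. The mean of the 31 others also rises, from 5.58 counts in control 52 to 15 in BDS 17, but stays under the limit of every lane.

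The number of members detected in a lane overlapped between the groups. It was 5, 7, 9, 2 and 7 of 38 in control pups 1, 18, 40, 52 and 69 and 5, 17, 5, 11 and 6 in BDS pups 11, 17, 24, 38 and 59. Added over lanes, this gave 30 of 190 possible detections (15.8%) in control lanes and 44 of 190 (23.2%) in BDS lanes. Over all 545 genes the shares were 46.3% and 55.6%. BDS 17 gave 17 of the 44 detections, and without it the BDS lanes gave 27 of 152 (17.8%). BDS 17 was the deepest lane and had a limit of 16.7 raw counts, against 26.3 in BDS 59. With 1 limit of 22.6 counts for all lanes BDS 17 had 14 members and BDS 38 had 11. The part of depth and of the lane's limit in these counts was not tested.

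Because the lanes were scaled by very different factors, the deposited normalized values of members near background were set beside the raw counts. In the authors' deposited table a score was 8.45 times the raw count in control 52 and 0.596 times in BDS 17. The authors' deposited percent of samples above background followed, in 545 of 545 genes, a score of 23 or more in every lane. By that limit 88 of 190 member values were above background in control lanes (46.3%) and 34 of 190 in BDS lanes (17.9%), against 30 and 44 by the limits of the lanes themselves. The order of the groups was thus opposite under the 2 limits. All 545 genes turned in the same way, with 65.1% of control and 52.1% of BDS values at a score of 23 or more in the authors' deposited table, against 46.3% and 55.6% by the lanes' own limits. In the 262 genes not present these shares were 30.6% and 4.73% by the authors' deposited score, against 1.76% and 11.1% by the lanes' limits. In the 283 present genes they were 97.0% and 96.0% by the authors' deposited score, against 87.5% and 96.8%. Both sets were defined by the lanes' own limits, so the shares by those limits were bounded by that choice. On the normalized scale used here a lane's own limit came to 124 in control 52 and 7.68 in BDS 17.

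**Figure D4:**
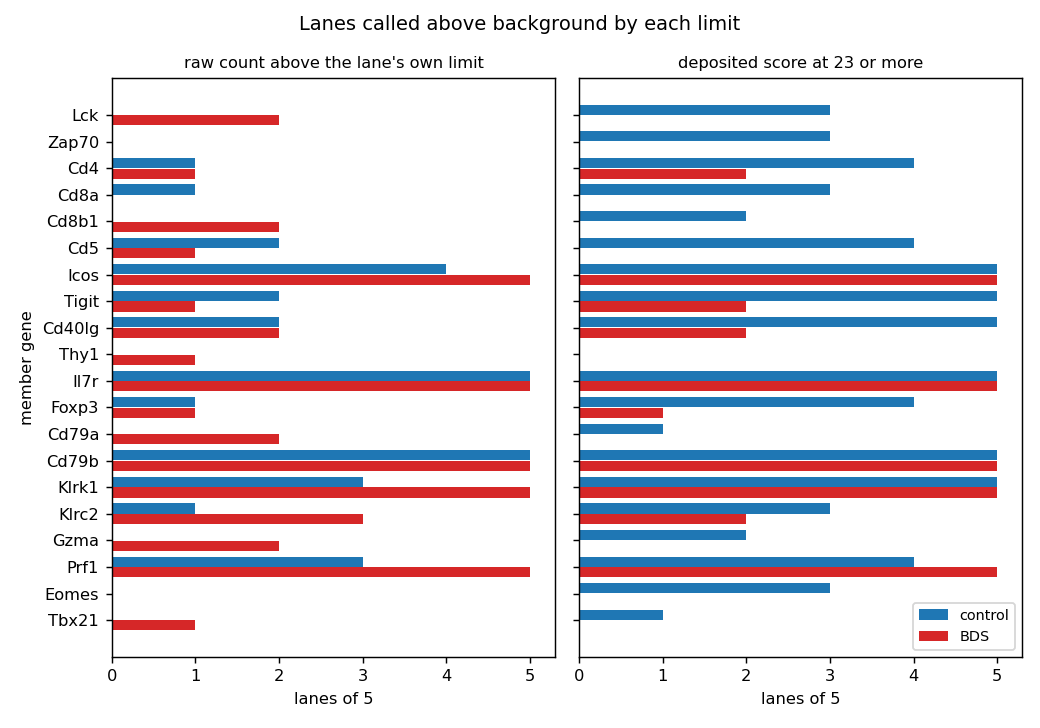
Lanes of 5 in which a member was above background, for control (blue) and BDS (red) pups, by the raw count against the lane's own limit (left) and by a deposited score of 23 or more (right); shown are members above in at least 1 lane by raw counts or in 30% of samples by the deposited table. Cd5, Tigit, Cd40lg, Cd4 and Foxp3 have more control than BDS lanes on the right, and at most 1 lane of difference on the left.

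The authors' deposited table put 11 of the 38 members, and 56.7% of all 545 genes, above background in 40% or more of samples. In the authors' deposited table these were the 7 present members and Tigit (70%), Cd4 (60%), Foxp3 (50%) and Cd5 (40%). By raw counts the last 4 genes were detected in 3, 2, 2 and 3 lanes. Cd4 had a deposited score of 135 in control 52, from 16 raw counts, and one of 14 in BDS 17, from 24 raw counts. Foxp3 also had a deposited score of 135 in control 52, from 16 raw counts, and one of 18 in BDS 17, from 31. For both genes, then, the lane with fewer barcodes had the higher score.

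Of the 31 members not present, 30 had a fold below 1 in the authors' deposited table, as had 97.7% of the 262 genes not present, a share close to that of the members. In the authors' deposited table the exception was Thy1 at 1.03, the median of the 31 was 0.35, and 24 of the 31 had a fold below 0.5. Among all 262 genes not present the median deposited fold was 0.45, and 60.7% were below 0.5, against 7.07% of the present genes. In raw counts the ratio of the group means, BDS over control, had a median of 1.08 over the 31 members and 1.34 over the 262 genes. Of the 31 members 18 had a raw ratio above 1 and 10 below 1, from 0.774 for Eomes to 2.32 for Thy1. Raw means of the groups were equal for Cd28 (8.4 and 8.4), Pax5 (6.4 and 6.4) and Cr2 (3.2 and 3.2). The authors' deposited folds of these 3 genes were 0.31, 0.33 and 0.42.

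At a p-value under 0.05 in the authors' deposited table, not adjusted, 8 of 38 members were lower in BDS and 0 higher, while 10.5% of all 545 genes were lower. They were Tigit (fold 0.43, p = 0.0015 in the authors' deposited table), Cd40lg, Cr2, Ms4a1, Zap70, Eomes, Cd8a and Lck. Of these, Cd40lg was present by raw counts, and Cr2, Ms4a1, Zap70 and Eomes were detected in 0 lanes. With no filter on low counts, edgeR on raw counts put 13 of the 38 members at an unadjusted p under 0.05, all lower, where 15.8% of the 545 genes passed in that direction. None had an adjusted p under 0.05 (edgeR; smallest 0.0906, for Cd5). In that fit the median log2 fold change was -0.89 over the 38 members and -0.24 over all 545 genes. Of the 38 members 31 were not present, against 262 of the 545 genes. Neither these medians nor the shares at an unadjusted p under 0.05 are therefore like for like. The ratio of normalized group means had a median of 0.413 over the 31 members and 0.525 over the 262 genes. It was 0.945 over the 7 present members and 1.06 over all 283 present genes. Cd3d was at -1.47 ± 0.53 and Cd3e at -1.36 ± 0.62 (SE), although each had between 3 and 11 raw counts in every lane. On normalized counts the groups did not overlap for 4 of the 31 members, Cd5, Cr2, Ms4a1 and Cd8a, all lower in BDS, a pattern found in 4.58% of the 262 genes not present. In raw counts the groups overlapped for all 38 members.

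**Figure D5:**
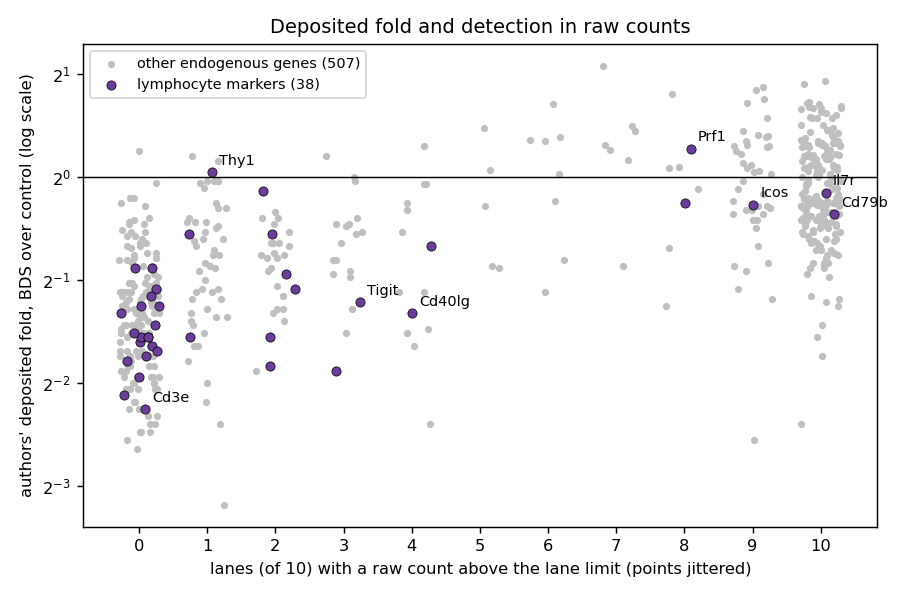
The authors' deposited fold, BDS over control (log axis), against the number of lanes in which the raw count exceeded the lane's limit, for 38 lymphocyte markers (purple) and the other endogenous genes (grey). Markers detected in 0 lanes lie between 0.21 and 0.54, and those in 8 or more lanes between 0.78 and 1.21.

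Further lymphocyte genes of the panel were listed apart from the members, and their counts stand beside the 51.9% of all genes that were present and the 29.5% that were in 0 lanes. Of 40 other T cell genes 10 were present and 21 were detected in 0 lanes, among the latter Il2, Il2ra and Ccr7. Of 17 other B cell genes 10 were present and 5 were in 0 lanes, shares close to those of all genes. The 10 include the kinase Btk, the adaptor Blnk and the factors Pou2f2, Irf4 and Xbp1, which are not restricted to B cells. The rest of the 10 were Tnfrsf13b, Tnfrsf17, Prdm1, Bcl6 and Gpr183. Of 12 other NK cell genes 1, the adhesion molecule Ncam1, was present and 10 were in 0 lanes, 7 of them receptors of the Klra family. None of the 21 present genes of these lists passed an adjusted p of 0.05 (edgeR). Of the 21, 5 had an unadjusted p under 0.05, where 28.3% of all 283 genes did: 2 T cell genes higher and 1 lower in BDS, and 2 B cell genes lower. The smallest p values were those of Cd160, Cd27 and Il13 among T cell genes and of Tnfrsf13b, Tnfrsf17 and Blnk among B cell genes.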

How the data were processed

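Raw counts of fluorescent barcodes per probe were deposited by the authors without normalization, and no source here names the counting software. The authors also deposited normalized counts, treated as a score since they hold scaled values in whole numbers, with the percent of samples above background, a fold (ratio of group means) and an unadjusted p-value, per the file headers. Per the series' design text these scores were scaled to positive controls and housekeeping genes.

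A lane's limit was the mean plus 2 SD of its 8 negative probes, and genes above it in at least 4 of 10 lanes were tested, 283 of 545. Scaling used the geometric mean of the 6 housekeeping genes named in the design text. Normalized counts are raw counts over that mean, rescaled to its geometric mean over lanes. Raw counts were fitted with edgeR 4.0.16 in R 4.3.3 (quasi-likelihood, two-sided, Benjamini-Hochberg over 283 genes). SE was derived as the log2 fold change divided by the root of the F statistic. DESeq2 1.42.0 and limma 3.58.1 (log2 of normalized counts plus 1) were alternatives. On simulated counts for 283 genes, most of them changed in each run, the edgeR step called 39.7% of genes changed 1.5-fold and 85.1% of those changed 2-fold. The lane values were compared by exact permutation over all 252 assignments.

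The members and lists were chosen with earlier results of these data known. All 38 members on the panel were accounted for: those present were described in full, those above the limit in 1 to 3 lanes with their lanes, the others by range, and of other lists up to 3 present genes with the smallest p. Other scalings, filters, limits and tools, lane depth as a covariate and leaving out pups were tried. Counts follow PCR and carry no molecular identifiers, so intervals from counting would not apply. The closest pair of lanes had a chi-square of 12.5 per degree of freedom, so no pair of lanes agreed within sampling noise. Pups of both groups share no number in the labels, and p-values measure the spread between pups.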

Additional observations from a re-analysis of the deposited data

Results flagged for a closer look

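Among 26 groups of 5 lanes examined, 2 held a value far from the other 4, and chance alone flags about 1 group in 20. Klrc2 stood at 40.8 normalized counts in control 52, from 8 raw counts, while the other control lanes lay between 13.5 and 19.0. The lane limit expressed in normalized counts was 124 in control 52, where the other control lanes lay between 13.9 and 37.8. Both values come from the shallowest lane.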

How the results depend on the processing

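No member was called under any of the 24 alternatives tried. Calls over all 283 genes numbered 0, but 14 with scaling to positive controls alone and 25 with DESeq2, and 0 to 48 when 1 pup was left out (48 without control 40, 19 without BDS 11). At an unadjusted p under 0.05 the count of 80 genes ranged from 36 with lane depth as a covariate to 139 with no filter. It was 128 with positive controls alone and 45 without BDS 17. For members it ranged from 0 to 13, the 13 being with no filter. With no filter 545 genes and 38 members were tested, in place of 283 and 7, so those 2 counts are not like for like. Present members were 7 and numbered 5 to 7 with 1 pup left out, 18 when 1 lane sufficed and 11 by the deposited score limit, which gave 122 detections in place of 74 (an alternative chosen after seeing the data, as was leaving out BDS 17 and control 52 together). With 1 pup left out, detections ran from 57 to 72. The housekeeping difference ran from 0.80 to 1.61 and the negative-probe difference from -1.1 to 0.81. Scaling to positive controls alone moved the median of all genes from 0.09 to 1.35 and turned Cd40lg to 0.51, Klrk1 to 1.13, Cd79b to 1.33, Icos to 1.13, Klrc2 to 1.10 and Il7r to 0.81. Background subtraction turned Klrk1 to 0.37, Icos to 0.15, Klrc2 to 0.78 and Il7r to 0.0034. Lane depth as a covariate turned Klrc2 to 0.18 and Prf1 to -0.26, and limma put Il7r at 0.11. Klrc2 was at 0.059 without control 52 and control 69, and without BDS 17 and control 52 it was at 0.0057 and Prf1 at -0.034. With 1 pup left out Klrk1 ran from -0.14 to 0.00066, Icos from -0.17 to 0.031 and Il7r from -0.21 to 0.25. The cause of each turn was not tested. No paired analysis was possible because the groups share no replicate number. Counts near the negative probes limit what can be said of the 31 members not present.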
